A study of Mus musculus with 12 samples.

Results

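The aminoacyl-tRNA synthetase genes encode the enzymes that join each amino acid to its own tRNA, the step that supplies the ribosome with charged tRNAs. The 36 members were taken by gene symbol: 20 cytosolic enzymes or subunits and 16 mitochondrial enzymes whose symbols end in 2, out of 19057 genes with a named probe on the array. 35 members had a named probe, and no probe was named for *Dars*, the cytosolic aspartate enzyme. A gene with several probes is represented by its brightest, judged by mean intensity on all 12 arrays. 31 members passed the filter on dim probes, which asked for a signal above the detection level on at least 4 arrays: 19 cytosolic and 12 mitochondrial genes of the 9108 genes that passed. *Aars2* was detected on 1 array and *Nars2* on 1 array, while *Hars2* and *Yars2* were detected on none, so no difference is given for these 4 mitochondrial genes.

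The study compared NIH-3T3 cells, a mouse embryonic fibroblast line, that had been made to differ in U17, a small nucleolar RNA made from introns of the host gene *Snhg3*. WT cells, a stable clone carrying a short hairpin against *Snhg3* (U17_KD, knockdown) and a stable clone carrying the construct pMDβglobinU17b (U17_OE, overexpression) had each been kept for 24 h in LPDS medium, which contains lipoprotein-deficient serum, so the controls shared that condition. Each group held 4 arrays titled as biological replicates, and the RNA was copied from poly-A tails. Each manipulated group was 1 clone and no vector-only clone was among the samples, so an effect of U17 and a property of the clone cannot be told apart. No probe was named for *Snhg3* or for U17, so the knockdown and the overexpression were not checked here.

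Animal cells make separate enzyme sets for the cytosol and the mitochondrion, all from nuclear genes, and a few enzymes such as those of *Gars* and *Kars* serve both. In the cytosol the enzymes for arginine, aspartate, glutamate and proline (a fused enzyme), glutamine, isoleucine, leucine, lysine and methionine form a large complex on the scaffold proteins Aimp1, Aimp2 and Eef1e1, while the others act outside it. Many cytosolic synthetase genes are known targets of ATF4, the transcription factor of the amino acid and integrated stress response, which binds sites with the core letters TGATGNAAN.

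To show where those letters lie, the RefSeq promoter windows (GRCm38.p6, 250 bases before to 50 after each annotated start) were searched on both strands. All 5 members with a match, and *Tars2*, the mitochondrial member with the largest difference between U17_KD and WT, are shown from 150 bases before to 30 bases after the start, 5′ to 3′ on the strand of the gene, with the motif or its reverse complement NTTNCATCA in capitals.
Aars, chr8:111033692-111033871, plus strand: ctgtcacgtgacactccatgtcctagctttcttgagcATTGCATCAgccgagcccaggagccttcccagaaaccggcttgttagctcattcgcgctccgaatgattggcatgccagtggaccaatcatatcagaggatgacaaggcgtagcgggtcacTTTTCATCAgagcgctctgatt
Gars, chr6:55037851-55038030, plus strand: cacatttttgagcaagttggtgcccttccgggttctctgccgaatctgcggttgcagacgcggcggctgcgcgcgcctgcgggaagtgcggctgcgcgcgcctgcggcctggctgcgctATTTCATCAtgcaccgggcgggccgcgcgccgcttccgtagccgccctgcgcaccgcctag
Iars, chr13:49681980-49682159, plus strand: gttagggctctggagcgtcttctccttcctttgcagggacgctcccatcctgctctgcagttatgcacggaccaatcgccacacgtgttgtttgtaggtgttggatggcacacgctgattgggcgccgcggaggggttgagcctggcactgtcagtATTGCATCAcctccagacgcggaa
Tars, chr15:11399629-11399808, minus strand: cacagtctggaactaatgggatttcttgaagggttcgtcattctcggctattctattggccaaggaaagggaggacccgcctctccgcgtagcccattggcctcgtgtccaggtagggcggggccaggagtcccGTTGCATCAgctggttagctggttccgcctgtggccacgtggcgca
Yars, chr4:129189753-129189932, plus strand: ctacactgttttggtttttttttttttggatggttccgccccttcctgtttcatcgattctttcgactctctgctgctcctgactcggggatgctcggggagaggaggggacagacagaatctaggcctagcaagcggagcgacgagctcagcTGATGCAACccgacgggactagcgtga
Tars2, chr3:95754948-95755127, minus strand: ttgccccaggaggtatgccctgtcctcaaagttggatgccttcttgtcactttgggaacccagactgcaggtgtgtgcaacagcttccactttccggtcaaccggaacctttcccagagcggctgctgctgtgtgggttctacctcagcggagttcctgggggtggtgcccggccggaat
The motif stood in 5 of the 13 cytosolic genes that had a window (38.5%) and in 0 of 14 mitochondrial genes, against 1215 of all 27025 genes in the promoter table (4.5%). *Aars* held it at 2 places, and *Yars* was the only one of the 5 with the motif on the gene's own strand. The windows of *Aars*, *Gars* and *Iars*, which fell in U17_KD, held it, and so did those of *Tars* and *Yars*, which did not pass the test. Among cytosolic genes with both a window and a measured difference, 3 of the 6 that fell in U17_KD and 2 of the 6 that did not pass held the motif. *Cars*, *Hars*, *Lars*, *Nars*, *Rars*, *Vars*, *Wars*, *Hars2* and *Pars2* were not searched.

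Of 45281 probes, 16706 were kept, and each array had 15820 to 15832 probes above the detection level. The deposited values were already normalized, with 37.7% below 0 on every array, so these near-equal counts do not measure array quality. Log2 intensities correlated at 0.98 to 0.995 between arrays of the same group and at 0.966 to 0.989 between groups, and the third U17_OE array lay farthest from its group, with an SD of differences of 0.426 against 0.23 to 0.34 for the other 11 arrays. Of 10 fibroblast markers, 8 were detected on all arrays and *Fap* on none. Of markers of other cell types, 2 of 5 epithelial (*Epcam*, *Krt18*), 3 of 4 endothelial, 3 of 4 macrophage, 3 of 4 adipocyte and 1 of 4 muscle genes with a probe (*Myod1*) were detected on no array, and none of these lists had a gene detected on all arrays. Of the kept ones, 2 of 3 epithelial markers were lower in U17_KD, where the list summed to 88.9 to 126 against 143 to 201 in WT and 121 to 183 in U17_OE. 1 of 3 kept muscle markers was lower in U17_KD and 1 in U17_OE, with sums of 89 to 120 and 78.3 to 99.1 against 167 to 226 in WT. 7 of the fibroblast markers were higher in U17_KD, where the summed intensity of the list was 57400 to 61200 against 47500 to 55100 in WT and 43600 to 53100 in U17_OE; the part of these marker shifts in the differences below was not tested. Arrays compare equal amounts of labelled RNA, so fewer cells of a type and less RNA per cell cannot be told apart.

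The first comparison asked how synthetase transcripts differed between the U17_KD clone and WT. 17 of the 31 measured members were lower in U17_KD by limma and 0 were higher, also 0 higher at an unadjusted p under 0.05. Here and below a gene passed the test when its Benjamini-Hochberg adjusted p, from a limma model of all 12 arrays and all kept probes, was under 0.05. That is 54.8% of the members called lower, where 40.5% of all 9108 genes were called, 20.4% lower and 20.0% higher. The lower members were 11 of 19 cytosolic genes, with a median log2 difference over the 19 of -0.32, and 6 of 12 mitochondrial genes, with a median of -0.26, beside -0.02 for all genes. The 4 U17_KD arrays lay below the 4 WT arrays without overlap for 17 of the 31 members, a pattern seen in 22.4% of all genes. These were the same 17 that were called lower.

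**Figure D1:**
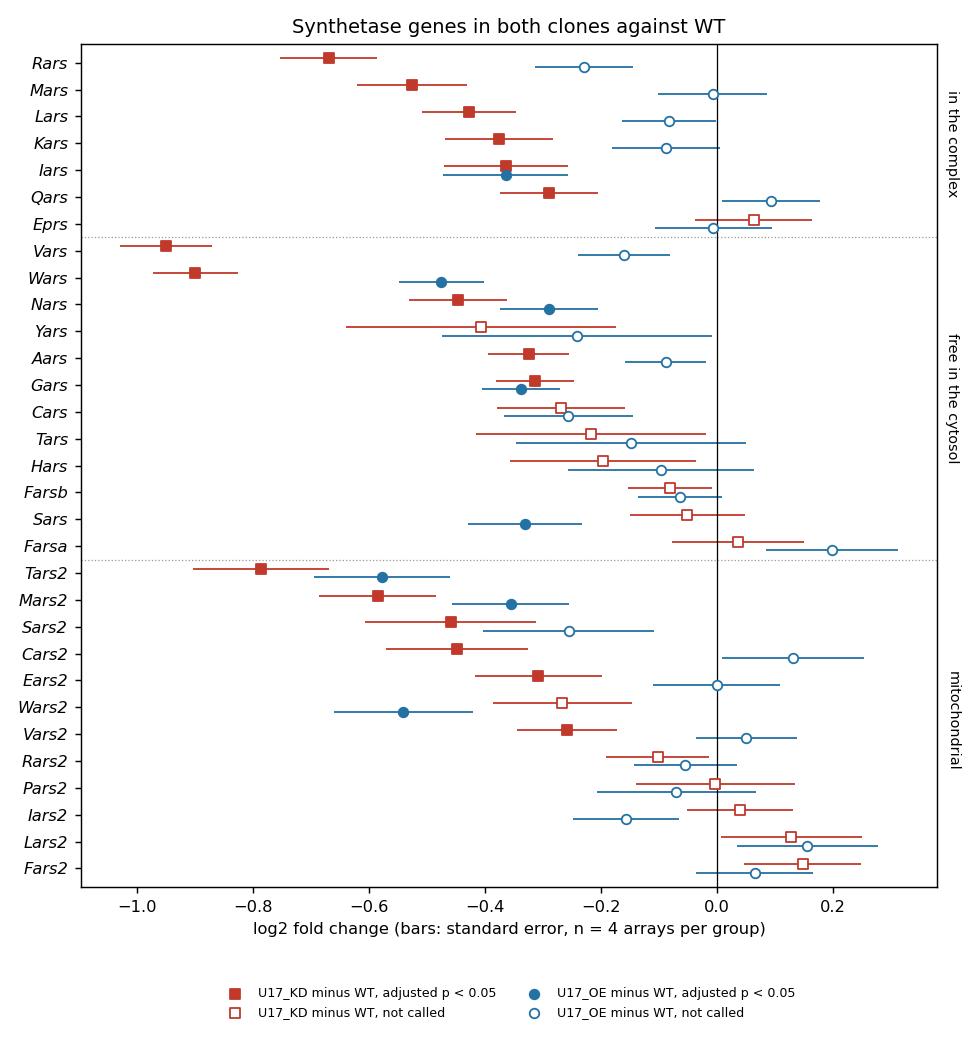
Log2 fold change of each measured synthetase gene in U17_KD (red squares) and U17_OE (blue circles) against WT, with bars of 1 standard error from the limma model and 4 arrays per group. Filled symbols passed an adjusted p of 0.05 and open symbols did not. The red symbols lie mostly left of 0, down to -0.95 for *Vars*, and no filled symbol lies right of 0.

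The largest difference was in *Vars*, the cytosolic valine enzyme. Its log2 intensity was 11.73, 11.69, 11.78 and 11.96 on the WT arrays, 10.80, 10.79, 10.93 and 10.85 on the U17_KD arrays and 11.75, 11.53, 11.58 and 11.66 on the U17_OE arrays. All U17_KD arrays were below all others, while WT and U17_OE overlapped. The U17_KD level was 1.93-fold below WT (log2 -0.95 ± 0.08 SE, n = 4 per group, limma adjusted p = 2.32e-08), and its log2 difference between U17_OE and WT was -0.16 (limma adjusted p = 0.227).

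*Wars*, the cytosolic tryptophan enzyme, separated all 3 groups. It read 10.56, 10.50, 10.53 and 10.56 in WT, 9.69, 9.64, 9.57 and 9.64 in U17_KD and 10.06, 10.09, 10.06 and 10.03 in U17_OE on the log2 scale. No group overlapped another, with U17_KD lowest and U17_OE between it and WT. U17_KD was 1.87-fold below WT (log2 -0.90 ± 0.07 SE, limma adjusted p = 1.78e-08) and U17_OE 1.39-fold below WT (log2 -0.48 ± 0.07 SE, limma adjusted p = 0.000284).

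*Rars*, which charges tRNA with arginine inside the large complex, read 12.53, 12.69, 12.64 and 12.39 in WT, 11.73, 11.89, 11.91 and 12.04 in U17_KD and 12.38, 12.33, 12.42 and 12.20 in U17_OE. All U17_KD arrays were below the rest, and the U17_OE arrays overlapped WT at its low end. The log2 difference between U17_KD and WT was -0.67 ± 0.08 SE (limma adjusted p = 4.41e-06).

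*Tars2*, the mitochondrial threonine enzyme, was the mitochondrial gene with the largest fall. Its log2 intensity was 8.45, 8.61, 8.32 and 8.42 in WT, 7.51, 7.76, 7.71 and 7.68 in U17_KD and 7.91, 7.66, 8.14 and 7.79 in U17_OE. Both clones lay wholly below WT and overlapped each other. The log2 difference from WT was -0.79 ± 0.12 SE in U17_KD (limma adjusted p = 3.22e-05) and -0.58 ± 0.12 SE in U17_OE (limma adjusted p = 0.00297).

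**Figure D2:**
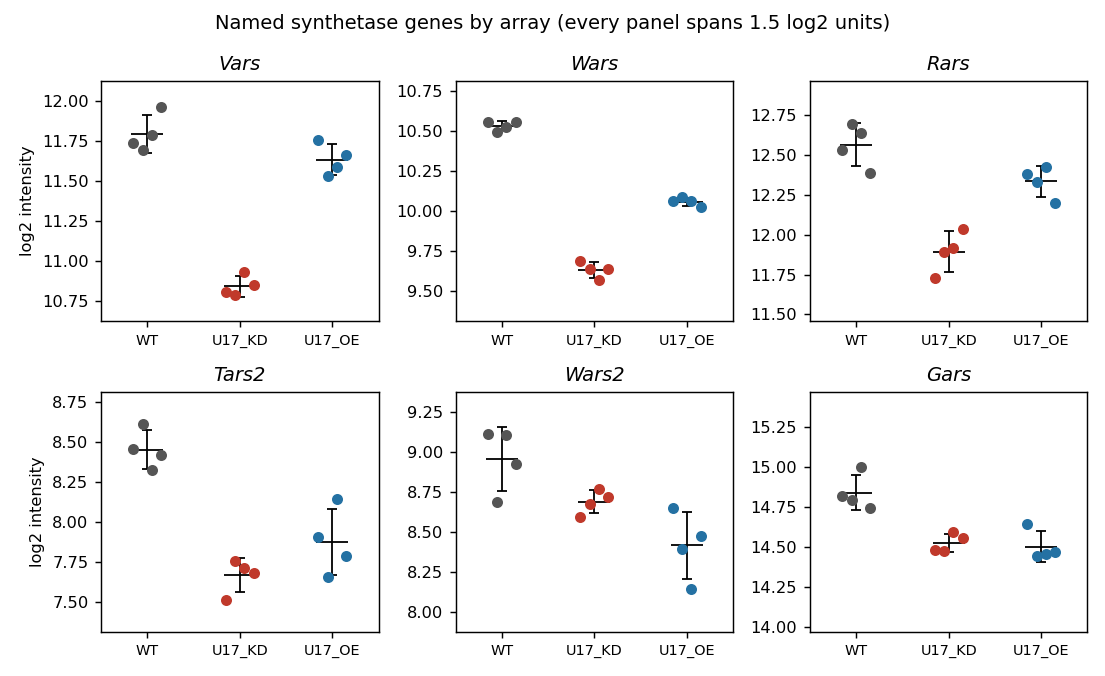
Log2 intensity on each array for *Vars*, *Wars*, *Rars*, *Tars2*, *Wars2* and *Gars*, 4 arrays per group, with the group mean (long line) and 1 SD (bars); each panel spans 1.5 log2 units. *Wars* forms 3 separate levels, *Vars* has its U17_KD arrays below all others, and *Gars*, added after its values were seen, is near 14.5 in both clones.

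Of the enzymes of the large complex, 6 of the 7 measured fell in U17_KD, with a median log2 difference of -0.38, where 20.4% of all genes were lower. Besides *Rars*, these were *Mars* (methionine, -0.53, limma adjusted p = 0.000234), *Lars* (leucine, -0.43, limma adjusted p = 0.000368), *Kars* (lysine, -0.38, limma adjusted p = 0.00353), *Iars* (isoleucine, -0.36, limma adjusted p = 0.0118) and *Qars* (glutamine, -0.29, limma adjusted p = 0.0111). *Eprs*, the fused glutamate and proline enzyme, did not pass (log2 difference 0.06, limma adjusted p = 0.668). The call for *Iars* did not hold without the second U17_KD array (limma adjusted p = 0.0538).

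Over the 12 cytosolic genes outside the complex the median log2 difference was -0.29 in U17_KD, beside -0.02 for all genes. Of the 12, 5 fell (41.7%), where 20.4% of all genes were lower. Besides *Vars* and *Wars* these were *Nars* (asparagine, -0.45, limma adjusted p = 0.00036), *Aars* (alanine, -0.32, limma adjusted p = 0.00117) and *Gars* (glycine, -0.31, limma adjusted p = 0.00114). The remaining 7 did not pass: *Yars* (tyrosine, -0.41), *Cars* (cysteine, -0.27), *Tars* (threonine, -0.22), *Hars* (histidine, -0.20), *Farsb* and *Farsa* (the subunits of the phenylalanine enzyme, -0.08 and 0.04) and *Sars* (serine, -0.05). *Yars* was above the detection level on only 2 WT arrays and 1 array of each clone, and its standard error of 0.23 was the largest among the members. The difference in the share that fell between complex and free enzymes was not tested.

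In the mitochondrial set 6 of the 12 measured genes fell in U17_KD (50%), where 20.4% of all genes were lower. Besides *Tars2* these were *Mars2* (methionine, -0.59 ± 0.10 SE, limma adjusted p = 0.000149), *Sars2* (serine, -0.46, limma adjusted p = 0.0193), *Cars2* (cysteine, -0.45, limma adjusted p = 0.00728), *Ears2* (glutamate, -0.31, limma adjusted p = 0.0338) and *Vars2* (valine, -0.26, limma adjusted p = 0.0244). *Wars2*, *Rars2*, *Pars2*, *Iars2*, *Lars2* and *Fars2* did not pass, with log2 differences from -0.27 for *Wars2* to 0.15 for *Fars2*. Leaving out the second U17_KD array reduced the count from 6 to 3, with *Sars2* (adjusted p = 0.0561), *Ears2* (0.0542) and *Vars2* (0.062) no longer passing in limma. The call of *Cars2* was lost with the mean of its kept probes (-0.20, limma adjusted p = 0.147). *Sars2* also lost its call without WT replicate 1 (limma adjusted p = 0.0548), *Ears2* without WT replicate 3 or 4 or U17_KD replicate 3 or 4 (up to 0.126), and *Vars2* without WT replicate 1 or 3 or U17_KD replicate 3 or 4 (up to 0.0669).

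Setting the enzymes of an amino acid side by side gave mixed pairs in U17_KD. For methionine and valine both the cytosolic and the mitochondrial gene fell (*Mars* -0.53 and *Mars2* -0.59, *Vars* -0.95 and *Vars2* -0.26). For arginine, leucine, isoleucine and tryptophan the cytosolic gene fell and the mitochondrial gene did not pass (*Rars2* -0.10, *Lars2* 0.13, *Iars2* 0.04 and *Wars2* -0.27). For threonine, serine and cysteine the mitochondrial gene fell and the brightest probe of the cytosolic gene did not pass, and for phenylalanine neither compartment's gene passed. For glutamate *Ears2* fell (-0.31) and the brightest probe of the fused *Eprs* did not pass (0.06). For proline the brightest probes of *Eprs* and *Pars2* (-0.00) did not pass. Differences within a pair were not tested.

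**Figure D3:**
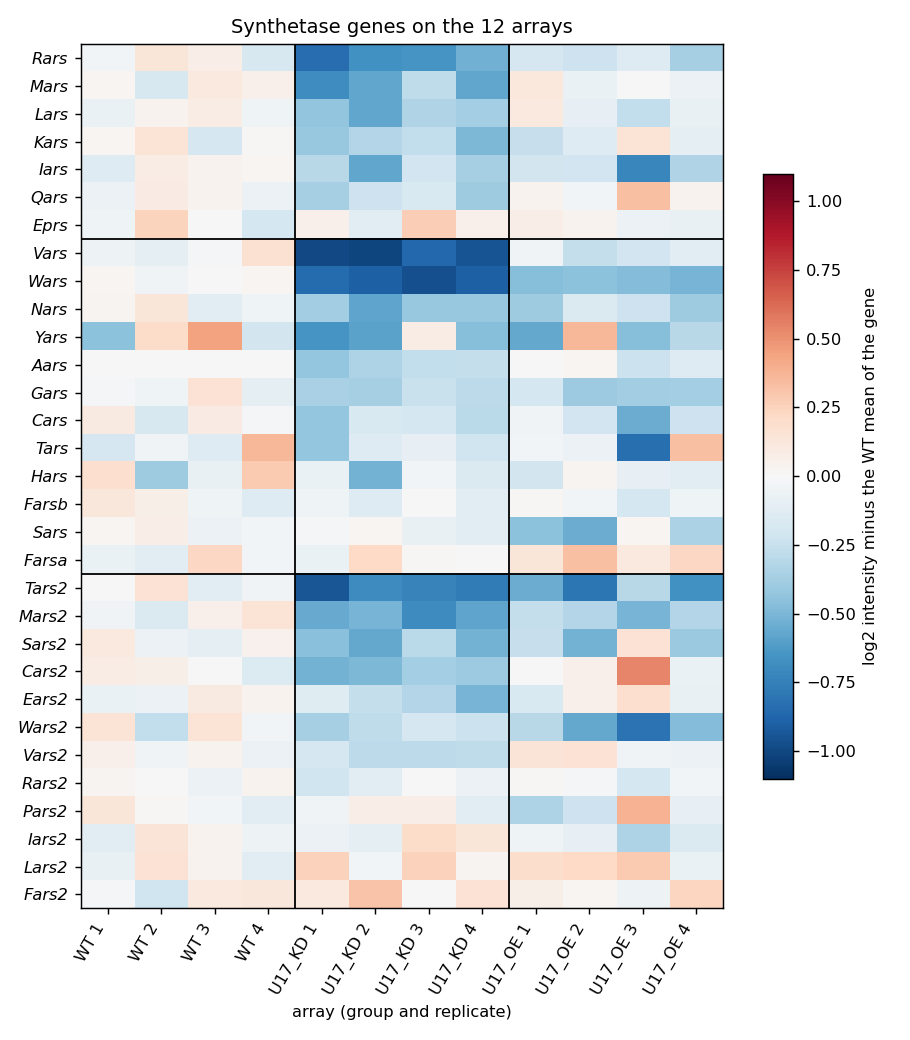
Log2 intensity of each measured synthetase gene minus its WT mean (colour, blue lower and red higher) on the 12 arrays, with genes of the large complex, free cytosolic genes and mitochondrial genes in 3 blocks. The U17_KD columns are the bluest, and the third U17_OE array differs from its group in *Iars*, *Tars*, *Wars2*, *Cars2* and *Sars*.

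The clone made to overexpress U17 was compared with WT in the same way. 8 of the 31 members were lower in U17_OE by limma and 0 were higher, also 0 higher at an unadjusted p under 0.05. The lower members made up 25.8% of those measured, where 12.8% of all genes were called, 6.37% lower and 6.48% higher. They were 5 cytosolic genes (*Wars*, *Iars*, *Gars*, *Sars* and *Nars*) and 3 mitochondrial genes (*Tars2*, *Wars2* and *Mars2*). The median log2 difference was -0.15 over the 19 cytosolic and -0.06 over the 12 mitochondrial genes, against -0.01 for all genes. U17_OE arrays lay wholly below WT for 7 of the 31 members, a pattern in 7.89% of all genes. All 7 were among the 8 called lower, of which *Sars* overlapped.

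*Wars2*, the mitochondrial tryptophan enzyme, was lowest in U17_OE. It read 9.11, 8.68, 9.11 and 8.92 in WT, 8.59, 8.67, 8.77 and 8.72 in U17_KD and 8.65, 8.39, 8.14 and 8.47 in U17_OE on the log2 scale. The U17_OE arrays lay below all WT arrays, the lowest WT array by a small margin, and U17_KD overlapped both groups. The log2 difference between U17_OE and WT was -0.54 ± 0.12 SE (limma adjusted p = 0.00575), and that between U17_KD and WT was -0.27 ± 0.12 SE (limma adjusted p = 0.0902).

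The calls in U17_OE were less firm for the smaller differences. *Gars* differed from WT by -0.34 on the log2 scale (limma adjusted p = 0.00258), *Iars* by -0.36 (limma adjusted p = 0.0341), *Mars2* by -0.36 (limma adjusted p = 0.0276), *Sars* by -0.33 (limma adjusted p = 0.0361) and *Nars* by -0.29 (limma adjusted p = 0.0319). The cytosolic count of 5 became 2 in limma without WT replicate 2 or U17_OE replicate 4, and 3 without U17_OE replicate 1 or WT replicate 1, 3 or 4. Only *Tars2*, *Wars2* and *Wars* kept their calls under every alternative tried.

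The clones were then set against each other, since both comparisons above share the WT arrays. 11 members were lower in U17_KD than in U17_OE and 1 was higher, that is 35.5% lower where 33.1% of all genes were called, 16.5% lower and 16.5% higher. 11 members had U17_KD arrays wholly below the U17_OE arrays, against 15.6% of all genes. 6 members fell in both clones against WT (the share of all genes that did so was not counted): *Gars*, *Iars*, *Nars*, *Wars*, *Mars2* and *Tars2*. Of these, by the brightest probes, *Wars* alone also passed directly between the clones (log2 -0.42 ± 0.07 SE, limma adjusted p = 0.000217). Among the other *Wars* probes, -0.21 and -0.18 did not pass (limma adjusted p = 0.148 and 0.17) and -0.42 did (0.0312). Second probes of *Iars* (-0.28, limma adjusted p = 0.0468) and *Mars2* (-0.34, limma adjusted p = 0.0387) were lower in U17_KD than in U17_OE. For the brightest probes of *Iars* and *Gars* the clones differed by 0.00 ± 0.11 and 0.02 ± 0.07 SE on the log2 scale. A result that did not pass does not show equal levels.

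11 members passed against WT in U17_KD and not in U17_OE, and 10 of these were also lower in U17_KD than in U17_OE. The shares of all genes with these patterns were not counted. The 11 were picked by calls from the same U17_KD and U17_OE arrays, so the direct comparison is not independent of that choice. The largest direct differences were *Vars* (-0.79 ± 0.08 SE, limma adjusted p = 3.98e-07), *Cars2* (-0.58 ± 0.12 SE, limma adjusted p = 0.00138), *Mars* (-0.52 ± 0.09 SE, limma adjusted p = 0.000383) and *Rars* (-0.44 ± 0.08 SE, limma adjusted p = 0.000566). *Qars* (-0.38), *Lars* (-0.34), *Vars2* (-0.31), *Ears2* (-0.31), *Kars* (-0.29) and *Aars* (-0.24) also passed, with limma adjusted p from 0.00198 for *Qars* to 0.0412 for *Ears2*. *Sars2* was the exception, with a log2 difference of -0.20 (limma adjusted p = 0.333). 5 of the 7 measured complex genes were lower in U17_KD than in U17_OE, where 16.5% of all genes were lower. For free cytosolic and for mitochondrial genes it was 3 of 12 each (25%), nearer to that share. The call for *Aars* failed without U17_OE replicate 2 (limma adjusted p = 0.0529) or U17_KD replicate 1 (0.0614), and that for *Kars* without U17_KD replicate 1 (0.0652) or 4 (0.0841). *Ears2* failed without WT replicate 1 or 3, U17_OE replicate 2, 3 or 4 or U17_KD replicate 2, 3 or 4 (limma adjusted p up to 0.147).

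*Sars*, the cytosolic serine enzyme, was the member higher in U17_KD than in U17_OE by its brightest probe (0.28 ± 0.10 SE, limma adjusted p = 0.0388). Its other kept probe gave the opposite sign, -0.56 ± 0.12 SE (limma adjusted p = 0.00171). That dimmer probe was also lower than WT in both clones, by -1.18 in U17_KD (limma adjusted p = 3.97e-07) and -0.62 in U17_OE (limma adjusted p = 0.00238). The direction between the clones for *Sars* therefore differed between its probes, and the call of the brightest probe was lost without any 1 of 8 arrays, with U17_OE replicate 2 giving the highest limma adjusted p (0.129).

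59 probes of the members were kept, and 19 genes had more than 1. Of the 28 probes other than the brightest, 25 had the same sign as the brightest between U17_KD and WT. Of all 16706 kept probes 3158 were called lower there and 3079 higher, and of these 28 probes 14 were lower and 2 higher. The higher ones were a second probe of *Eprs* (0.56, limma adjusted p = 0.00881) and of *Pars2* (0.53, limma adjusted p = 0.0131), whose brightest probes were not called. For *Cars* another probe fell by 1.24 on the log2 scale (limma adjusted p = 1.15e-05) while the brightest was not called. A second probe of *Tars* was also called lower (-0.46, limma adjusted p = 0.028), with no U17_KD array above the detection level, a level at least 1.11-fold lower than WT. The other probes of *Gars*, *Kars* and *Cars2* and 1 of the other probes of *Qars* were not called, whereas the brightest were.

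In U17_OE against WT, 22 of the 28 other probes had the sign of the brightest and 4 were called lower, none higher. Of all 16706 kept probes 924 were called lower and 1001 higher in that comparison. A second probe of *Rars* was called lower there (-0.30, limma adjusted p = 0.0156) although the brightest was not (-0.23, limma adjusted p = 0.0918). The second probes of *Gars*, *Iars* and *Mars2* and 1 probe of *Wars* were not called, whereas the brightest were. In the direct comparison of the clones, *Sars* was the gene with calls in opposite directions.

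**Figure D4:**
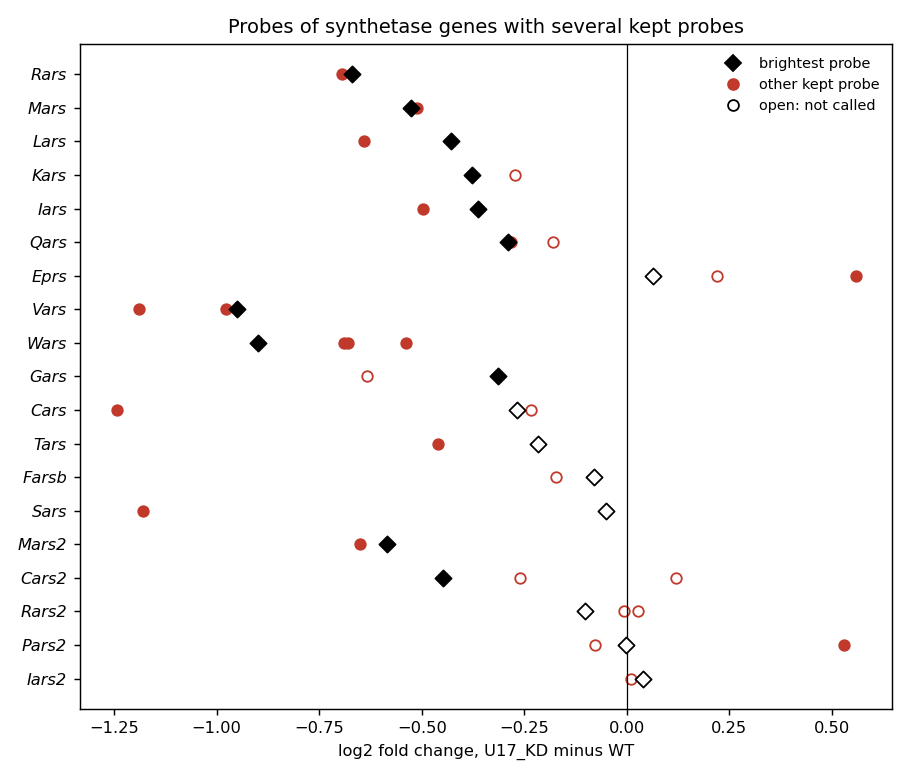
Log2 fold change between U17_KD and WT for the 19 synthetase genes with more than 1 kept probe: black diamonds are the brightest probe, red circles the other kept probes, and open symbols did not pass an adjusted p of 0.05. *Vars*, *Wars*, *Rars* and *Lars* have every probe filled and left of 0, while *Sars* and *Cars* have an open diamond and a filled circle beyond -1.

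Enzymes of this family fall into class I and class II, which differ in the fold of the catalytic domain. In U17_KD against WT 11 of 17 measured class I genes and 6 of 13 class II genes fell, with median log2 differences of -0.36 and -0.22, where 20.4% of all genes were lower. In U17_OE 4 of 17 and 4 of 13 fell, where 6.37% of all genes were lower. *Eprs*, which holds a domain of each class, was counted in neither, and the difference between classes was not tested.

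Genes that work with the synthetases were read from a separate list. Of 15 listed partners 13 were measured, and *Pstk* did not pass the filter. In U17_KD 3 were lower and 2 higher than WT, with a median log2 difference of -0.00; the 23.1% lower is near the 20.4% of all genes, of which 20.0% were higher. In U17_OE 0 passed in limma, where 6.37% of all genes were lower and 6.48% higher. At an unadjusted p under 0.05 in U17_OE, 1 partner was higher (*Qrsl1*, 0.20, limma adjusted p = 0.0949) and 1 lower (*Dtd2*, -0.49, limma adjusted p = 0.0657).

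Of the scaffold proteins of the large complex, *Eef1e1* (-0.43 ± 0.11 SE, limma adjusted p = 0.0035) and *Aimp2* (-0.32 ± 0.10 SE, limma adjusted p = 0.0151) fell in U17_KD. *Aimp1* did not pass, at -0.00, and a second *Aimp2* probe gave -0.08 (limma adjusted p = 0.641). *Dtd2*, which removes misattached amino acids from tRNA, fell by 0.78 (limma adjusted p = 0.000995). *Gatb*, a subunit of the mitochondrial enzyme that makes glutaminyl-tRNA, rose by 0.54 (limma adjusted p = 0.0126).

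The largest partner difference was in *Prorsd1*, which is related to an editing domain of the proline enzyme. Its log2 intensity was 5.61, 5.41, 5.47 and 5.53 in WT, 8.04, 7.90, 7.92 and 7.99 in U17_KD and 5.38, 5.82, 5.61 and 5.27 in U17_OE. The U17_KD arrays stood apart from the rest, while only 1 WT and 2 U17_OE arrays were above the detection level. U17_KD exceeded WT by 2.46 ± 0.14 SE on the log2 scale (limma adjusted p = 9.64e-11), and its log2 difference from U17_OE was 2.44 (limma adjusted p = 1.75e-10).

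Other genes of the amino acid response, the pathway through which ATF4 acts, were read from a list of 31, of which 24 were measured. 14 fell (58.3%) and 5 rose in U17_KD, with a median log2 difference of -0.39, where 20.4% of all genes were lower and 20.0% higher, so the share that rose is near that of all genes. 13 fell (54.2%) and 1 rose in U17_OE, with a median of -0.29, where 6.37% of all genes were lower and 6.48% higher. *Atf4* itself did not pass in U17_KD (0.09 on the log2 scale). *Pycr1*, *Slc7a5* and *Eif2s1* had no named probe, and *Psph*, *Slc7a1*, *Slc3a2* and *Eif2ak4* did not pass the filter.

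The largest falls in U17_KD were in *Vldlr*, the very low density lipoprotein receptor, *Slc7a11*, the cystine transporter, and *Shmt2*, the mitochondrial serine enzyme of one-carbon metabolism. *Vldlr* was detected on all WT arrays and on no U17_KD array, so it was at least 3.62-fold lower (limma adjusted p = 6.22e-11). *Slc7a11* fell by 2.26 (limma adjusted p = 3.73e-09), with 1 U17_KD array above the detection level and its other probes not called, and *Shmt2* fell by 1.34 (limma adjusted p = 2.33e-10). The largest rises measured in both groups were in *Slc38a2*, an amino acid transporter (0.91, limma adjusted p = 8.38e-09), in *Cebpb* (0.64, limma adjusted p = 9e-07) and in *Ddit3* (0.54, limma adjusted p = 0.00393). The other kept probes of *Slc38a2* were not called, at 0.53 (limma adjusted p = 0.0621) and -0.24 (limma adjusted p = 0.272). *Eif2ak3*, an eIF2α kinase of the endoplasmic reticulum, was detected on no WT array, so its rise is given as a bound with no rank (at least 1.24-fold higher, limma adjusted p = 0.0036).

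In U17_OE the largest falls of the list were *Slc7a11* (-1.01, limma adjusted p = 0.000431), *Vldlr* (-0.77, limma adjusted p = 0.00199) and *Trib3*, a pseudokinase induced by this pathway (-0.74, limma adjusted p = 0.000507). The other kept probes of *Slc7a11* were not called there, at 0.01 (limma adjusted p = 0.984) and -0.21 (limma adjusted p = 0.546). The rise was *Slc38a2*, by its brightest probe (0.26, limma adjusted p = 0.0212). Its dimmer kept probes had the opposite sign and did not pass, at -0.13 (limma adjusted p = 0.775) and -0.32 (limma adjusted p = 0.228). Directly between the clones 9 of the 24 measured genes of the list (37.5%) were lower and 5 higher in U17_KD. The median was -0.06, beside -0.01 for all genes. Of all genes 16.5% were lower and 16.5% higher, so the share of the list that was higher is near that of all genes. *Trib3* read 10.53, 10.31, 10.77 and 10.63 in WT, 9.33, 9.53, 9.41 and 9.59 in U17_KD and 10.12, 9.86, 9.50 and 9.81 in U17_OE. Both clones lay below WT and overlapped each other.

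**Figure D5:**
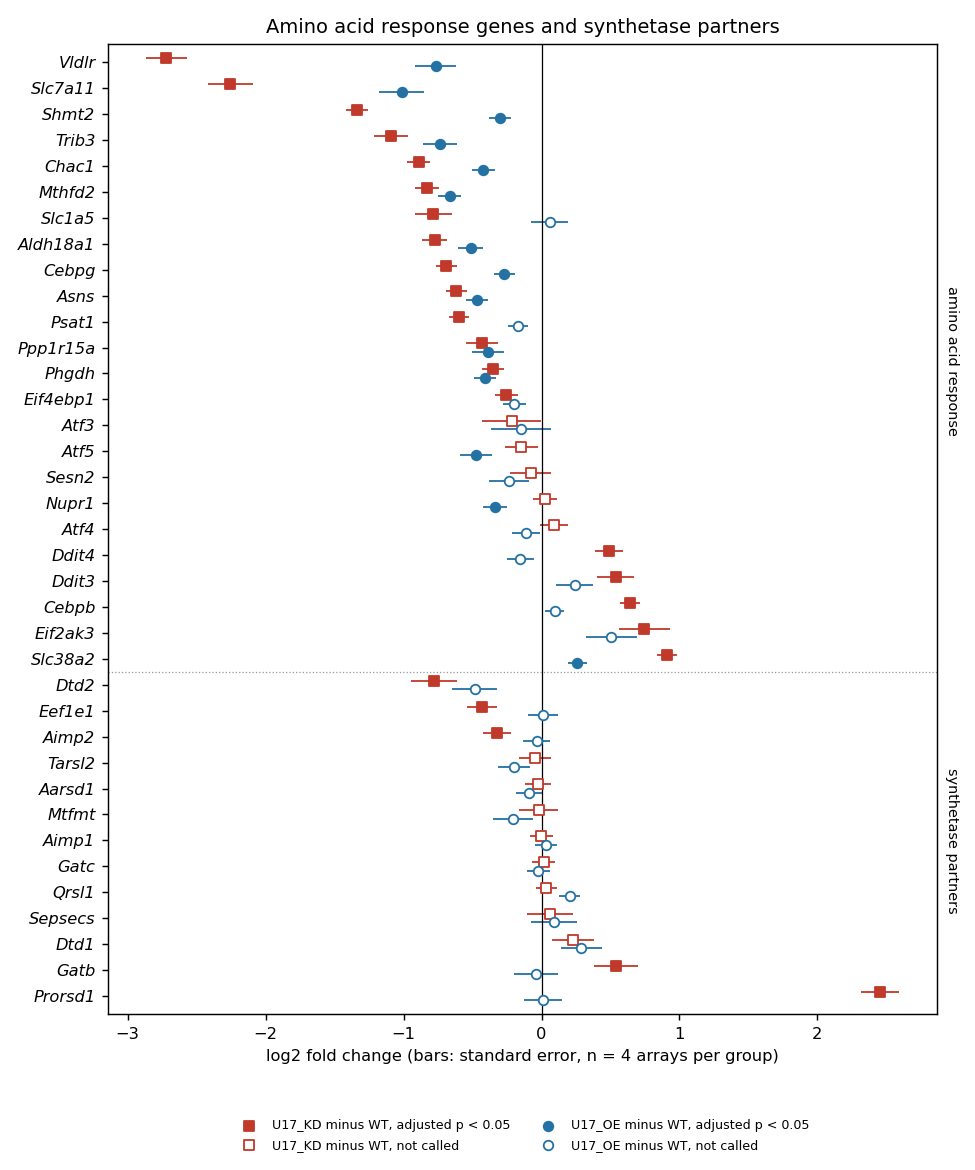
Log2 fold change against WT of the measured amino acid response genes (top) and synthetase partners (bottom) in U17_KD (red squares) and U17_OE (blue circles), with bars of 1 standard error and filled symbols for an adjusted p under 0.05. The U17_KD points of *Vldlr* and *Eif2ak3* are fitted values with 1 group below the detection level; most response genes lie left of 0 in both clones, and *Prorsd1* at 2.46 is the farthest right.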

How the data were processed

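Total RNA of NIH-3T3 cells was hybridised to Illumina mouse bead arrays, 4 per group, 12 in all. The authors deposited linear intensities already background-subtracted and normalized, with values below 0 among them; the submitters' processing notes name GenomeStudio 2010, and no source used here gives the normalization method. A deposited table of unnormalized intensities with detection p-values was used for its 8 WT columns alone; 40 columns with names that match no label were not used. Probe names came from the platform annotation: 34885 probes with 1 symbol, 18 with several and 10378 not listed. 35 members matched the RefSeq gene table.

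Values were corrected by normexp with a background mean of 0.492 and SD of 15.8, fitted from the WT detection p-values, raised by an offset of 16 and taken to log2, so small differences of dim probes are understated. A probe counted as detected above an intensity of 30.5, which differed from the authors' detection call at p = 0.05 for 0.155% to 1.51% of probes on the WT arrays, and was kept if detected on at least 4 arrays. No further normalization was applied. limma 3.58.1 in R 4.3.3 fitted the 3 groups in 1 model (9 residual degrees of freedom, variance trend), two-sided, with Benjamini-Hochberg adjustment over 16706 probes in each comparison. The script was tested on simulated data. Where a group was below the detection level on all its arrays, the fold is a bound against that level, with means of log2 values. The number of arrays limits the precision; levels were not compared between probes.

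The members and the lists of partners, response genes and markers were chosen with earlier results of these data known. Values on every array are given for the 4 largest called falls and rises of members in U17_KD and the 3 in U17_OE, and list genes were named by the 3 largest called rises and falls; *Gars* in a plot, *Trib3* and *Prorsd1* by array, and the remaining list genes were chosen after their values were seen. Lists are described by counts and medians and have no test of their own. 24 alternatives were run: each of the 12 arrays left out in turn, and 12 other settings of background correction, offset, filter, normalization, probe choice, variance model, array weights, samples in the fit and replicate block.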

Additional observations from a re-analysis of the deposited data

Results flagged for a closer look

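Among 93 groups of 4 arrays (31 members in 3 groups), 2 had 1 array far from the other 3 by Dixon's ratio of the gap to the range, where chance alone flags about 1 group in 20. *Gars* read 14.64 on the first U17_OE array and 14.44 to 14.47 on the other U17_OE arrays (ratio 0.871). *Vars2* read 9.21 on the first U17_KD array and 9.10 to 9.11 on the others (ratio 0.882). In both cases the distant array lay nearest to WT, and both calls against WT held without it.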

How the results depend on the processing

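Of 888 gene results over 24 alternatives, 801 kept direction and call, 86 lost the call and 1 reversed: *Sars* between U17_KD and U17_OE became -0.14 (limma adjusted p = 0.256) with the mean of all kept probes. Leaving out an array of the group not compared could change the adjusted p but not the log2 difference, so those results could not reverse. The calls of *Vars*, *Wars*, *Rars*, *Tars2*, *Mars*, *Mars2*, *Nars*, *Lars*, *Kars*, *Aars*, *Gars* and *Qars* in U17_KD against WT held in all 24. Leaving out 1 array at a time gave, for U17_KD against WT, 10 to 12 cytosolic and 3 to 7 mitochondrial genes and medians of -0.35 to -0.28 and -0.30 to -0.23; for U17_OE against WT, 2 to 6 and 2 to 3 genes and medians of -0.18 to -0.10 and -0.0801 to -0.0282; and between the clones 6 to 9 and 2 to 4 genes and medians of -0.21 to -0.11 and -0.16 to -0.0790. The lowest mitochondrial count, 3, came without the second U17_KD array.

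The count of 5 cytosolic genes in U17_OE became 2 with no filter, 2 without the variance trend, 2 with only the compared groups fitted and 2 with the replicate number as a block. The count of 6 mitochondrial genes in U17_KD became 4 with that block and 4 with no filter, in both cases without *Ears2* (limma adjusted p = 0.0594 with the block) and *Vars2* (0.0504). Those numbers pair no samples by the labels, and the 12 correlations of same-numbered deviations ran from -0.382 to 0.0891, with 0 over 0.1. With no filter the mitochondrial medians were -0.18 in U17_KD, -0.0259 in U17_OE and -0.0380 between the clones. The mean of all kept probes gave -0.43 (cytosolic) and -0.23 (mitochondrial) in U17_KD and 0.0017 (mitochondrial) in U17_OE, and array weights gave -0.25 for the cytosolic median between the clones. The cause of these shifts was not tested. Dim probes such as those of *Yars*, *Tars* and *Hars* limit what could be detected.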
